A study of Mus musculus with 4 samples.

Results

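Anp32e knockout fibroblasts carried 1497 narrow H2A.Z peaks that lay far from every H2A.Z peak of wild-type fibroblasts. These remote peaks are the knockout peaks narrower than 2000 bp that shared no base with a wild-type peak and whose edge was more than 50 kb from the edge of the nearest wild-type peak on the same chromosome. They were 1497 of the 41912 peaks in the knockout list and of the 79579 peaks in both lists together. They were thus chosen by measured values of these libraries, namely a peak call in the knockout, the lack of a wild-type call and the width, and these values describe them without testing anything.

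H2A.Z is a variant of the core histone H2A. It is placed into nucleosomes by remodelling complexes and is best known beside transcription start sites and at enhancers, where it goes with dynamic and accessible chromatin. Anp32e is a histone chaperone that binds H2A.Z and is reported to take it off chromatin. H2A.Z sites in fibroblasts are concentrated in gene-rich sequence, and long stretches without such sites are typical of gene-poor parts of the genome.

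Mouse embryonic fibroblasts were profiled by ChIP-seq, in which DNA bound to H2A.Z is recovered with an antibody and sequenced. The groups were wild type (Anp32e+/+) and knockout (Anp32e-/-), and both came from crosses of Anp32e+/- mice on a C57BL/6 background. Cultures were prepared from torsos of individual embryos at embryonic day 10.5 and used at passages 5 to 10. Each genotype had 1 H2A.Z library and 1 input library, and the inputs were not analysed here. The sources used here do not say how the null allele was made, which sex the embryos were or how many cultures lay behind each library. Peak positions hold no expression values, so neither the cell type nor the loss of Anp32e could be checked in them. With 1 library per genotype there was no replicate and no test between genotypes, and every difference describes these 2 libraries. Sequencing depth is unknown, and the lists hold no peak height. Intervals in brackets are exact 95% intervals that cover counting error over peaks only and treat neighbouring peaks as independent. Coordinates are on mm9 and count from 1. Genes and sequences under the peaks were not used here, because the gene and promoter tables at hand are on another build.

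Of all knockout peaks, 11759 had no base in common with a wild-type peak, which is 28.1% of the list. Among these knockout-only peaks, 10380 were narrower than 2000 bp, or 44.6% of the 23257 knockout peaks under that width. The remote peaks made up 14.4% of the narrow knockout-only peaks (13.8 to 15.1%) and 6.44% of all narrow knockout peaks. The other 8883 narrow knockout-only peaks had a wild-type peak within 50 kb and are called near peaks here. Narrow peaks were the common form of remote knockout-only peak, since only 154 of the 1651 remote knockout-only peaks of any width reached 2000 bp. The narrow share was 90.7% among remote (89.2 to 92.03%) and 87.9% among near knockout-only peaks (87.2 to 88.5%).

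Peaks lay close to each limit of the rule on both sides. The remote peaks closest to the distance limit were 50020 bp and 50034 bp from a wild-type peak, and the closest excluded peaks were 49923 bp and 49828 bp away. Between 50 and 55 kb there were 152 narrow knockout-only peaks, beside 167 between 45 and 50 kb. At the width limit, the widest remote peaks spanned 1994 and 1992 bp, and the narrowest excluded ones spanned 2001 bp in both cases. Remote knockout-only peaks of 1900 to 1999 bp numbered 38, and those of 2000 to 2099 bp numbered 53, so more lay just above the width limit than just below.

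The same rule was turned around to give the background in the opposite direction. In the wild-type list 6892 peaks shared no base with a knockout peak, or 18.3%. Of these, 892 were narrower than 2000 bp and more than 50 kb from any knockout peak, which is 3.64% of the 24523 narrow wild-type peaks. Remote knockout-only peaks therefore outnumbered remote wild-type-only peaks by a factor of 1.68 (1.54 to 1.83). H2A.Z calls far from the other genotype's sites were thus not limited to the knockout. Near the other genotype's peaks the corresponding factor was 1.52 (1.47 to 1.57), from 8883 peaks of the knockout and 5859 of the wild type. The intervals of the remote and near factors overlapped, and their difference was not tested. Both are factors of counts over unequal amounts of sequence. Per Mb of sequence more than 50 kb from the other genotype's peaks, the remote factor was 1.61 (1.48 to 1.75). The remote factor of counts moved to 3.01 when peaks under 1000 bp were dropped from both lists. Such peaks made up 38.7% of remote wild-type-only and 10.1% of remote knockout-only peaks. The step also drops wild-type peaks that other knockout peaks overlapped or lay near. The remote knockout-only set therefore grew from 1497 to 1726 peaks.

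The remote peaks lay a median of 95.6 kb from the nearest wild-type peak (92.2 to 100.4 kb), with quartiles of 65.7 and 160.0 kb. More than 500 kb separated 36 of them from any wild-type peak, and 782 lay between 50 and 100 kb. Remote wild-type-only peaks had a median distance of 94.6 kb from the nearest knockout peak, within the interval of the knockout value. The rule sets the lower end of both distributions.

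Remote sequence held few narrow knockout-only peaks for its size. Of the sequence spanned by peaks, 1316 Mb lay more than 50 kb from any wild-type peak, which was 52.7% of the sequence outside wild-type peaks. The remote peaks were spread over it at 1.14 per Mb (1.08 to 1.20). Within 50 kb of a wild-type peak, narrow knockout-only peaks numbered 7.51 per Mb (7.35 to 7.67), so the remote density was 0.152 of the near density (0.143 to 0.160). No correction was made for sequence that cannot be mapped.

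The density fell in every step away from wild-type sites. It was 11.3 peaks per Mb within 5 kb and 4.59 per Mb at 20 to 50 kb. Beyond the limit it was 2.52 per Mb at 50 to 100 kb, 1.57 per Mb at 100 to 200 kb and 0.616 per Mb at 200 to 500 kb. Past 500 kb it was 0.101 per Mb (0.0709 to 0.140). The fall was gradual across the 50 kb limit.

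Wild-type-only peaks followed a similar course with distance from knockout peaks. Their density was 1.55 per Mb at 50 to 100 kb, 0.966 per Mb at 100 to 200 kb and 0.355 per Mb at 200 to 500 kb. The ratio of knockout-only to wild-type-only density in these 3 distance classes was 1.63, 1.62 and 1.73. Nearer than 50 kb the ratio rose from 1.41 within 5 kb to 1.79 at 20 to 50 kb, so it was not highest in remote sequence. It was 1.02 past 500 kb, with an interval of 0.620 to 1.68 that rests on 36 knockout-only and 34 wild-type-only peaks.

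**Figure D1:**
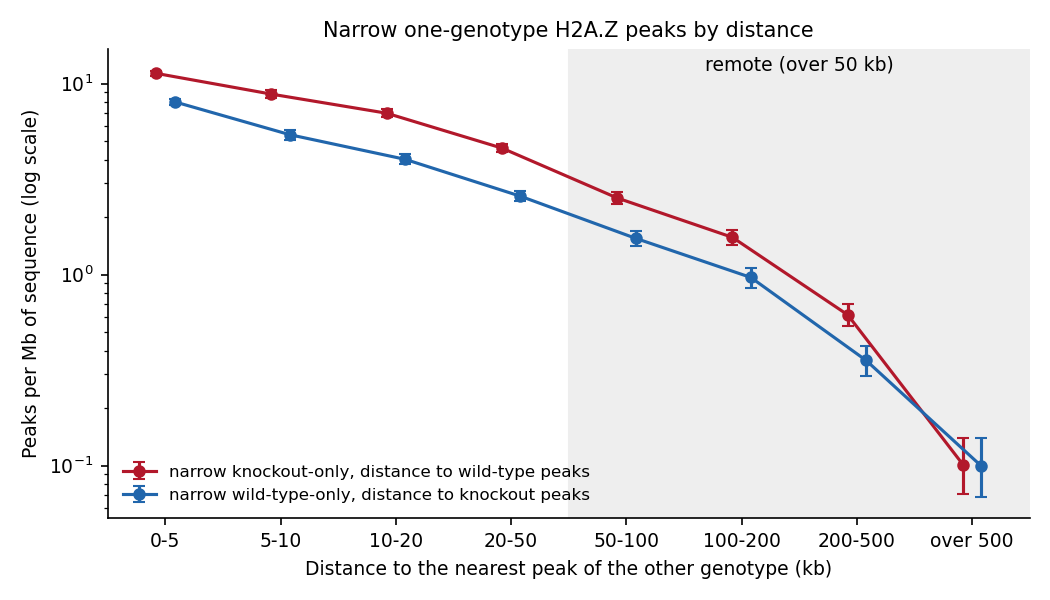
Number of narrow one-genotype H2A.Z peaks per Mb of sequence (log scale) in classes of distance (kb) to the nearest peak of the other genotype, with bars for the exact 95% counting interval. Knockout-only peaks (red) fall from 11.3 per Mb within 5 kb to 0.101 per Mb past 500 kb, and wild-type-only peaks (blue) lie below them in every class up to 500 kb.

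By median width the remote peaks were narrower than the near peaks, among which width already fell with distance. The remote peaks had a median width of 1326 bp (1312 to 1335 bp). Their quartiles were 1153 and 1522 bp and their range was 554 to 1994 bp. The near peaks had a median of 1396 bp (1391 to 1401 bp), and narrow knockout peaks shared with the wild type had a median of 1580 bp (1573 to 1588 bp). All 3 sets were cut at the same 2000 bp. Among near peaks the median was 1413 bp within 5 kb of a wild-type peak (1405 to 1423 bp). It was 1365 bp at 20 to 50 kb (1352 to 1382 bp). Peaks under 1000 bp made up 10.1% of remote (8.61 to 11.7%), 3.91% of near (3.51 to 4.33%) and 1.82% of narrow shared peaks (1.60 to 2.07%). Together the remote peaks covered 2.01 Mb.

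Isolated shared peaks were wider than remote peaks. A set of 1421 narrow knockout peaks matched a single wild-type peak that was itself more than 50 kb from every other wild-type peak. These isolated shared sites had a median width of 1562 bp (1537 to 1585 bp), which lay close to that of all narrow shared peaks. The remote peaks were 236 bp narrower by their medians. The sets have the 50 kb limit in common, and distances beyond it were not matched. In the wild-type list the order was the same at lower widths, with medians of 1059 bp for remote and 1134 bp for near wild-type-only peaks. Knockout-only peaks were wider than wild-type-only peaks in both the remote and the near sets. Peaks narrower than 2000 bp made up 55.5% of the knockout list and 65.1% of the wild-type list. Widths of the 2 lists are thus not on equal terms.

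Among the remote peaks themselves, median width was lower at 200 to 500 kb than nearer to wild-type sites. It was 1333 bp at 50 to 100 kb (1323 to 1350 bp), 1325.5 bp at 100 to 200 kb (1302 to 1343 bp) and 1274 bp at 200 to 500 kb (1228 to 1294 bp). The 36 peaks past 500 kb had a median of 1373.5 bp with a wide interval (1173 to 1519 bp). Spearman's rho between distance and width was -0.07 over the 1497 peaks, which all come from 1 library.

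**Figure D2:**
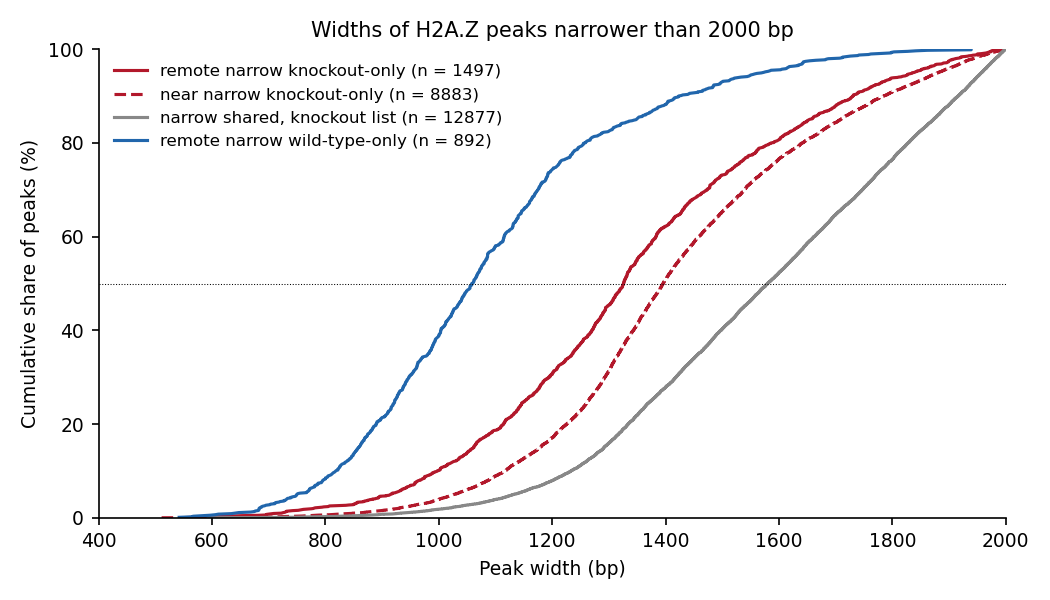
Cumulative share (%) of H2A.Z peaks narrower than 2000 bp by width (bp) in 4 sets, with a dotted line at the median. The remote knockout-only curve (solid red, median 1326 bp) lies to the left of near knockout-only peaks (dashed red, 1396 bp) and of narrow shared knockout peaks (grey, 1580 bp), and to the right of remote wild-type-only peaks (blue, 1059 bp).

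The remote peaks fell both singly and in groups within stretches that held no wild-type peak. A wild-type-free interval is the sequence between neighbouring wild-type peaks, and 4656 such intervals held sequence more than 50 kb from a wild-type peak. Remote peaks occupied 960 of them, or 20.6% (19.5 to 21.8%), and left 3696 empty. A single remote peak was found in 665 intervals, whereas 832 remote peaks (55.6%) shared an interval with at least 1 other. There were 27 intervals with 5 or more, and these held 166 of the remote peaks. The occupied intervals were longer, with a median of 299.4 kb against 168.1 kb for empty ones. Longer intervals have more room for remote peaks, so this difference is partly built in. Neither it nor the 55.6% was set against an even scatter of peaks.

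The longest stretches without wild-type peaks were not the richest in remote peaks. In intervals of 100 to 200 kb there were 3.74 remote peaks per Mb of remote sequence (3.36 to 4.14), and in those of 200 to 500 kb there were 2.25 per Mb (2.08 to 2.44). Intervals of 500 kb to 1 Mb had 1.10 per Mb, those of 1 to 2 Mb had 0.495 per Mb, and the 124 intervals over 2 Mb had 0.179 per Mb (0.139 to 0.227). An interval of 100 to 200 kb between wild-type peaks has no sequence more than 100 kb from one. The fall with length is thus tied to the fall with distance given above, and they were not separated. The share of intervals with a remote peak went from 11.6% at 100 to 200 kb to 29.3% at 200 to 500 kb, and was 31.5 to 35.4% in the 3 longer classes. The intervals over 2 Mb held 379.4 Mb of remote sequence, and 85 of the 124 had no remote peak at all.

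**Figure D3:**
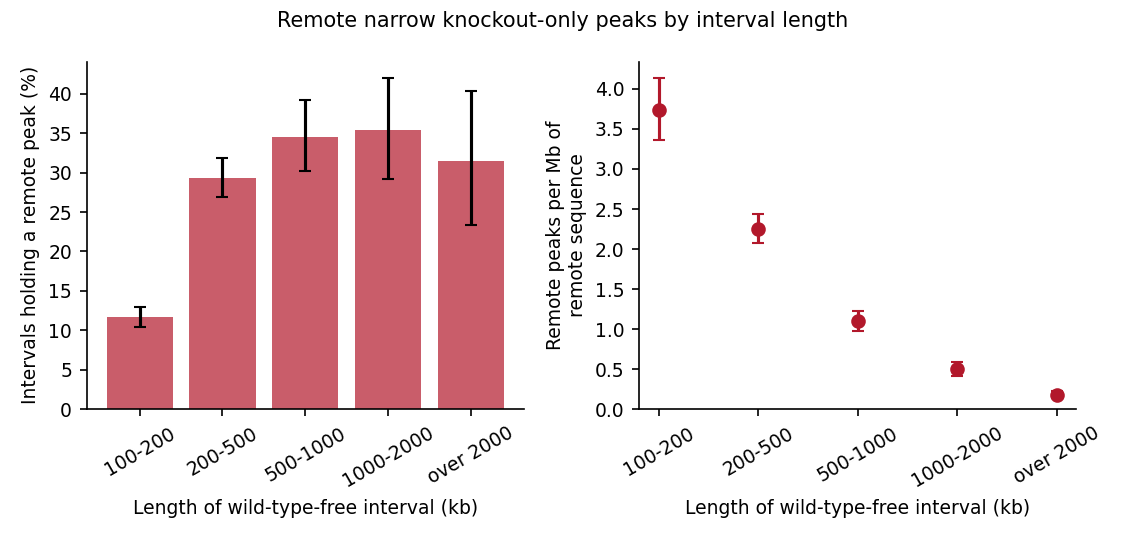
Left, share (%) of wild-type-free intervals that held at least 1 remote narrow knockout-only peak, by interval length (kb). Right, remote peaks per Mb of sequence more than 50 kb from a wild-type peak in the same length classes, with bars for exact 95% counting intervals in both panels. Density falls from 3.74 per Mb in the shortest class to 0.179 per Mb in the longest.

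Pooled over lengths, intervals with remote peaks held other knockout-only peaks more often than intervals without. Knockout-only peaks within 50 kb of the bounding wild-type peaks were present in 40.0% of occupied intervals (36.9 to 43.2%) and 27.5% of empty ones (26.1 to 29.01%). By interval length these shares were 52.6% and 33.8% at 100 to 200 kb, 40.8% and 19.9% at 200 to 500 kb, and 30.8% and 15.9% at 500 kb to 1 Mb, without overlap of the intervals of each pair. Over 1 Mb they were 18.5% (11.96 to 26.6%) and 13.9% (9.67 to 18.99%), and the intervals overlapped. Remote knockout-only peaks of 2000 bp or more were present in 8.96% of occupied intervals (7.23 to 10.9%) and in 1.41% of empty ones (1.05 to 1.84%). Intervals were pooled over chromosomes that differ in the number of knockout-only peaks.

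The wild-type peaks next to remote peaks resembled the wild-type list in width and in the share kept in the knockout. The remote peaks had 1086 different wild-type peaks as their nearest, and 83.3% of those overlapped a knockout peak (81.0 to 85.5%). The share was 81.3% among 6598 other wild-type peaks that bounded an interval over 100 kb (80.4 to 82.3%) and 81.7% in the whole wild-type list. Their median width of 1612 bp (1526 to 1664 bp) lay close to the 1641 bp of all wild-type peaks.

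The distance from remote peaks to other knockout peaks moved with the 50 kb limit of the rule. The median distance to the nearest other knockout peak was 53.9 kb (51.9 to 56.9 kb), with quartiles of 18.7 and 100.3 kb. It was 31.7 kb with a limit of 25 kb and 100.02 kb with a limit of 100 kb. No knockout peak of any kind lay within 50 kb of 816 remote peaks (54.5%), and none within 100 kb of 376 (25.1%). The rule contributes to these counts, and no such share was taken for all knockout peaks. For 638 remote peaks (42.6%) the nearest knockout peak was another remote peak, at a median of 21.2 kb among these 638. Over all 1497 remote peaks, the median distance to another remote peak was 175.4 kb. The nearest knockout peak was a shared peak for 527 (35.2%), at a median of 92.03 kb, which the rule itself keeps distant. The nearest was a near peak for 225, a remote peak of at least 2000 bp for 78 and a near knockout-only peak of that width for 29.

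A minority of the remote peaks sat close together. Another remote peak lay within 10 kb of 208 (13.9%, 12.2 to 15.8%) and within 1 kb of 40. In the wild-type mirror set 116 of 892 had another of their kind within 10 kb, and the interval of that share, 10.9 to 15.4%, overlapped. Remote peaks with another within 50 kb had a median width of 1332 bp (1314 to 1362 bp) and the rest 1319.5 bp (1302 to 1333 bp).

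The largest group was on chromosome 8. Its wild-type-free interval, 14322411 to 14878390, held 11 remote peaks between 14446997 and 14747204, which followed one another in the knockout list without any other peak between them. They were 1123 to 1824 bp wide, and the closest pair, starting at 14679889 and 14683219, was 1.51 kb apart. The other gaps to the nearest knockout peak were 10.4 to 28.4 kb, so the group was a loose row of separate sites over 300.2 kb. A further 5 knockout-only peaks lay in the same interval outside this row.

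A tighter group lay on chromosome 1, in the interval from 165925898 to 166177536. It held 9 remote peaks of 1060 to 1819 bp between 165978156 and 166115394. Between 166065054 and 166089669 there were 5 of them, with a smallest gap of 1.10 kb. This interval also ranked second by density, with 59.4 remote peaks per Mb of remote sequence.

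Chromosome 13 had 8 remote peaks in an interval of 605.2 kb, 102737626 to 103342813. The next 2 named intervals were again on chromosome 1 and held 7 each. The first spanned 77513798 to 78185357, and its remote peaks were scattered over 329.6 kb. The second spanned 195210111 to 195528627, with its 7 remote peaks within 76.3 kb and 7 other knockout-only peaks in the interval. Of the 5 intervals with 7 remote peaks, these 2 were named by their chromosome and position alone.

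By density the first interval was on chromosome 19, 33105409 to 33252614, with 5 remote peaks in 47.2 kb of remote sequence. They spanned 33165603 to 33198630 and were 1092, 1876, 1368, 1164 and 1245 bp wide, with gaps of 4.56 to 8.46 kb to the nearest knockout peak. Such short remote sequence makes the density high with few peaks. The third was the interval on chromosome 1 from 195210111 (32.0 per Mb). The last 2 named by density held 5 remote peaks each, on chromosome 1 at 93438448 to 93696117 (31.7 per Mb) and on chromosome 5 at 74174742 to 74447211 (29.0 per Mb).

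**Figure D4:**
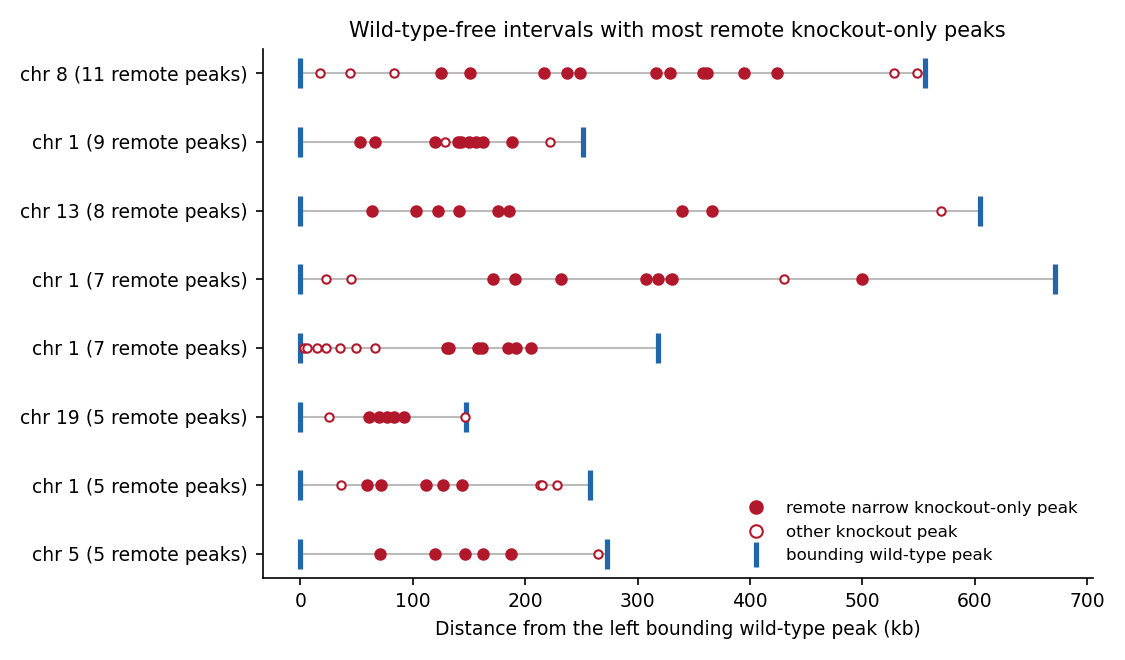
Positions of knockout H2A.Z peaks in the 8 named wild-type-free intervals, as distance (kb) from the bounding wild-type peak of lower coordinate. Filled circles are remote narrow knockout-only peaks, open circles are other knockout peaks, and blue bars are the bounding wild-type peaks. The 11 remote peaks on chromosome 8 form an open row over 300.2 kb, whereas the 5 on chromosome 19 lie close together.

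The 5 remote peaks farthest from wild-type sites were solitary. The farthest lay on chromosome 1 at 148344256 to 148345964, was 1709 bp wide and was 2.15 Mb from the nearest wild-type peak and 1.15 Mb from the nearest knockout peak, itself remote. The second, chromosome 1 at 111878582 to 111880347, was 1.88 Mb from both the nearest wild-type and the nearest knockout peak, which was a shared one. The third, chromosome 1 at 29216630 to 29217706, had wild-type peaks 3.33 Mb away on one side and 1.71 Mb on the other, and its nearest knockout peak, a remote one of at least 2000 bp, lay 1.56 Mb off. The fourth was on chromosome 5 at 83128086 to 83129083 with a distance of 1.68 Mb, and the fifth on chromosome 12 at 115616727 to 115617755 with 1.19 Mb. Each of these 5 was at least 1.15 Mb from any other knockout peak, and their widths of 998 to 1766 bp lay within the range of the other remote peaks.

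The 5 widest remote peaks lay on chromosomes 13, 14, 15 and 16 and were 1978 to 1994 bp wide. The widest, chromosome 13 at 100607290 to 100609283, had another remote peak 6.57 kb away. The second, chromosome 14 at 125073916 to 125075907, lay beyond the last wild-type peak of its chromosome, 481.4 kb from it. On chromosome 15 the remote peak starting at 97167668 had another 10.9 kb away, and the nearest knockout peak to the one starting at 28244446 was 125.8 kb off. The fifth, chromosome 16 at 95480779 to 95482756, was only 84 bp from a remote knockout-only peak of at least 2000 bp, and the pair joined into 1 broad peak when peaks within 500 bp were merged.

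Remote peaks were unevenly spread over the chromosomes. Chromosome 1 held 240, chromosome 13 held 156, chromosome 5 held 112 and chromosome 16 held 102. At the other end were chromosome 4 with 15, chromosome 12 with 20 and chromosome 6 with 21. Chromosomes 1, 13 and 16 together carried 33.3% of remote peaks (30.9 to 35.7%), 26.9% of near peaks (26.02 to 27.9%) and 17.9% of the knockout list, on 16.5% of the remote sequence. Chromosomes 1, 13 and 16 were picked because earlier results of these data placed most of the excess of knockout peaks there. Their surplus is thus partly fixed by that choice and tests nothing. Chromosomes are not replicates, and all 20 come from the same pair of libraries.

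The unevenness remained when the amount of remote sequence was taken into account. Per Mb of remote sequence, chromosome 13 had 2.93 remote peaks (2.49 to 3.43), chromosome 1 had 2.15 (1.89 to 2.44) and chromosome 16 had 1.95 (1.59 to 2.37). The lowest densities were 0.217 per Mb on chromosome 4 (0.121 to 0.357), 0.262 on chromosome 6 (0.162 to 0.401), 0.303 on chromosome 12 (0.185 to 0.468) and 0.355 on the X chromosome (0.257 to 0.479). The median of the 20 chromosomes was 1.22 per Mb. Remote peaks occupied 36.4% of the eligible wild-type-free intervals on chromosome 13 and 5.45% on chromosome 4.

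Chromosomes differed in which genotype had more remote peaks. Chromosome 4 held 158 remote wild-type-only peaks beside its 15 remote knockout-only peaks, a ratio of 0.0949 (0.0519 to 0.161). The ratio was also below 1 on chromosome 6 (21 and 90 peaks, 0.233), chromosome 12 (20 and 67, 0.299) and chromosome 11 (28 and 50, 0.560). It was 10.0 on chromosome 1 (6.56 to 15.9), from 240 and 24 peaks. On chromosome 13 it was 6.50 (4.21 to 10.5) and on chromosome 16 it was 6.38 (3.74 to 11.6). The interval lay above 1 on 14 chromosomes and below 1 on 4, and it included 1 on chromosomes 14 and 17.

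The genome-wide ratio of 1.68 thus averages over chromosomes with opposite directions. Chromosomes 1, 13 and 16 gave 498 remote knockout-only and 64 remote wild-type-only peaks, and chromosomes 4, 6 and 12 gave 56 and 315. Both groups were picked with results of these data known. The other 14 chromosomes had 943 and 513, a ratio of 1.84 (1.65 to 2.05). With chromosomes 1, 13 and 16 alone left out the ratio was 1.21. The libraries were single cultures or pools of unstated number, so a difference between genotypes and one between cultures cannot be told apart. Chromosome copy number in the cultures was not tested.

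**Figure D5:**
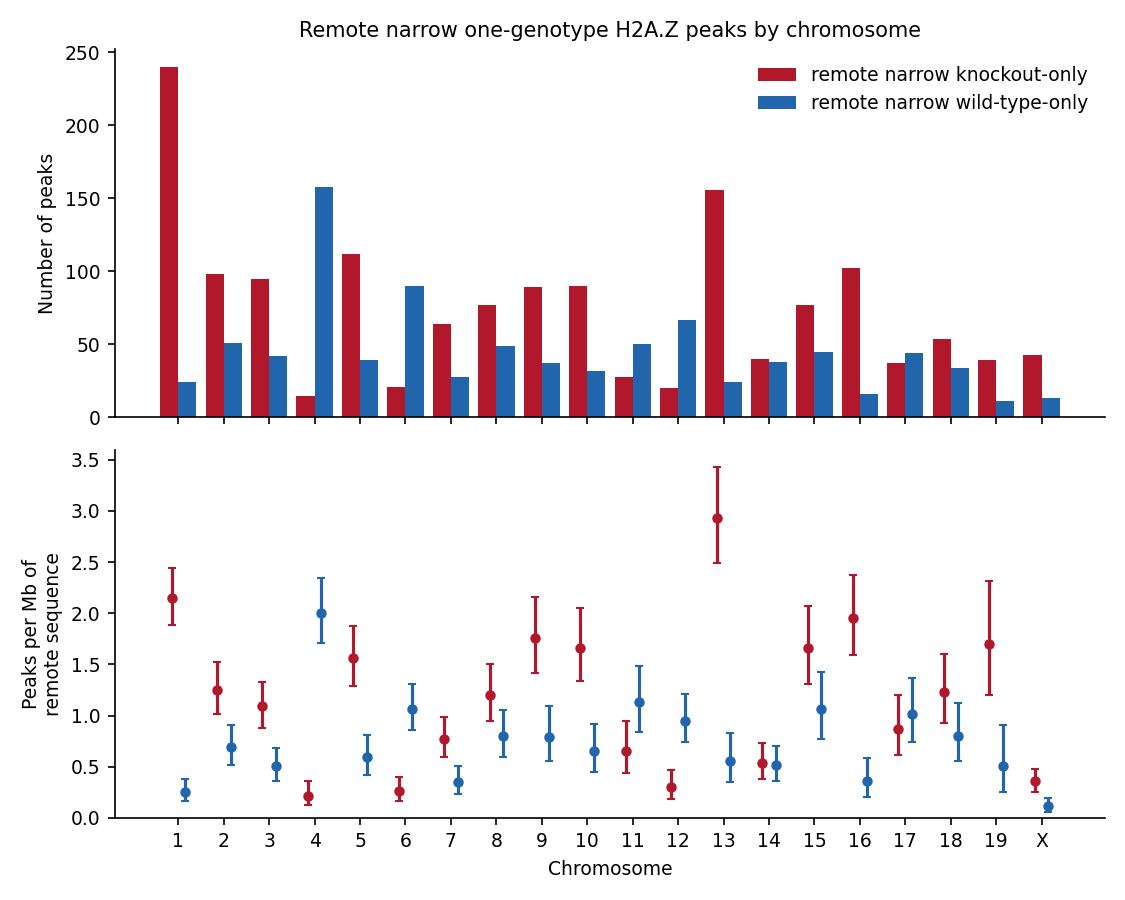
Top, number of remote narrow knockout-only (red) and remote narrow wild-type-only (blue) H2A.Z peaks on each chromosome. Bottom, the same per Mb of sequence more than 50 kb from any peak of the other genotype, with bars for exact 95% counting intervals. Chromosome 1 has 240 knockout-only and 24 wild-type-only peaks, and chromosome 4 has 15 and 158.

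On the 3 chromosomes with the highest ratios, remote peaks were found along the whole length. Chromosome 1 had between 7 and 42 remote peaks in each of its 10 bins of 20 Mb, and no bin had more than 5 remote wild-type-only peaks. Its lowest bin was 100 to 120 Mb and its highest 180 to 200 Mb. Chromosome 16 had 10 to 34 remote peaks per bin. In the 6 bins of chromosome 13 that held peaks there were 14 to 47. Chromosome 4 had at most 5 remote knockout-only peaks per bin, none of them past 120 Mb, and 11 to 40 remote wild-type-only peaks.

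The share of narrow knockout-only peaks that were remote also differed between chromosomes. It was 28.7% on the X chromosome (21.6 to 36.6%), where 43 of the 150 narrow knockout-only peaks were remote, and 20.2% on chromosome 14 (14.8 to 26.5%). It was 6.88% on chromosome 4 (3.90 to 11.1%) and 7.73% on chromosome 11 (5.20 to 10.98%). Remote sequence amounted to 121.001 Mb on the X chromosome, 74.8 Mb on chromosome 14 and 111.6 Mb on chromosome 1, where the remote share was 18.1%.

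Remote peaks were narrower than near peaks on 19 of 20 chromosomes by their medians, the exception being chromosome 11 with 1393 and 1373 bp. The intervals of the remote and near medians were separate only on chromosomes 1, 5, 13 and 16 and overlapped on the rest. The chromosomes share the same libraries and are not replicates. The median width of remote peaks ran from 1115 bp on chromosome 4 (993 to 1315 bp, 15 peaks) to 1414 bp on chromosome 15 (1320 to 1478 bp, 77 peaks). On chromosome 1 it was 1331 bp (1286 to 1375 bp) and on chromosome 13 it was 1314.5 bp (1274 to 1352 bp). Both lay close to the genome-wide median, to which these chromosomes contributed 240 and 156 remote peaks.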

How the data were processed

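Each of the 2 H2A.Z libraries has 1 deposited list of peak positions with 3 columns (chromosome, start and end). The submitters' processing notes name mm9 as the build, and as tools MACS 1.4.2 (a peak caller), HOMER, Bowtie 0.12.8 (an aligner) and CASAVA 1.8.2. No source used here states their settings, the peak threshold or whether inputs entered the calls. Reads were single-end and 50 bases long, per the labels' protocols.

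Analysis used pandas 2.3.3, numpy 2.4.6 and scipy 1.17.1 under Python 3.11.15, and figures used matplotlib 3.10.9. Peaks sharing at least 1 bp were called overlapping, and gaps were measured from edge to edge. Remote sequence was counted between the first and last peak of either list on each chromosome, outside peaks of the other genotype. Shares and ratios carry exact Clopper-Pearson intervals, densities exact Poisson intervals and medians exact order-statistic intervals. The named regions are the 5 farthest and 5 widest remote peaks, the 5 intervals with most remote peaks and, among intervals with at least 5, the 5 densest. The set and these rules were chosen with earlier results of these data known. The code was tested on simulated data. No peak was removed for lying in repeats.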

Additional observations from a re-analysis of the deposited data

How the results depend on the processing

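Of 88 alternative values for 9 results, 46 stayed within the main interval (counts, within 1.5 times), 42 moved, and no ratio changed direction. A gap over 25 kb gave 2872 peaks, 27.7% of narrow knockout-only peaks, a median width of 1339.5 bp, 1.75 per Mb, 0.201 of the near density and 31.7 kb to the nearest knockout peak. A gap over 100 kb gave 715 peaks, 6.89%, 1307 bp, 0.711 per Mb, 0.110, 100.02 kb and 36.4% on chromosomes 1, 13 and 16. Widths under 1500 bp gave 15.9%, 1245 bp, 0.832 per Mb, 0.170, a ratio to remote wild-type-only peaks of 1.32 and 47.9% sharing an interval. Widths under 2500 bp gave 1343 bp, 1.22 per Mb and 58.3% sharing. Dropping peaks under 1000 bp gave 15.8%, 1346 bp, 1.26 per Mb, a ratio of 3.01 and 58.5% sharing. Merging within 500 bp gave 15.3% and 0.162. Autosomes alone gave 1.22 per Mb. Without chromosomes 1, 13 and 16 the values were 13.3%, 0.909 per Mb, 0.141, a ratio of 1.21, 48.5% sharing and 60.8 kb. Without chromosomes 1, 4, 6, 12, 13 and 16, an alternative chosen after seeing the data, they were 943 peaks, 13.5%, 1.07 per Mb, 1.84, 50.5% and 60.3 kb. Other limits of gap and width change the set by construction, and otherwise the cause was not tested. Distances between centres moved no value. No stricter peak threshold could be tried, because the lists hold no score. No paired analysis was possible because there was only 1 H2A.Z library of either genotype. Since depth is unknown, a difference in peak number or width between the lists may follow it.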
